A study of Mus musculus with 24 samples.

Results

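The contrast described here is the effect of camptothecin on the RNA of injured mouse dorsal root ganglia, averaged over 3 times after nerve crush. Wild-type C57/BL6 mice aged 12 weeks had a sciatic nerve crushed, and camptothecin at 2 mg/kg or vehicle was injected into the peritoneum 30 minutes later. Ganglia were taken at 18, 24 or 36 h, so every group carried the injury and none was uninjured. Of 24 labelled samples, the 19 with a column of counts entered the contrast, 9 with vehicle and 10 with camptothecin, and 5 were not used here. There were 3 libraries in each group except camptothecin at 24 h, which had 4. Each time gave a camptothecin minus vehicle difference, the 3 differences were averaged with equal weight, and the description rests on transcripts whose difference had the same sign at all 3 times. The labels do not say whether a library is 1 animal or a pool, nor what the vehicle was, and the p-values therefore speak of the spread between libraries, which may be technical.

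Topoisomerase I relaxes the supercoils that build up ahead of and behind a moving RNA polymerase, by nicking and resealing 1 DNA strand. Camptothecin traps the enzyme on the nicked strand. In cultured neurons the loss or inhibition of topoisomerase I is known to lower the expression of long genes, and in dividing cells the trapped complexes become DNA breaks at replication forks. The ganglion holds sensory neuron cell bodies with satellite glia, Schwann cells, macrophages and vessels, and its neurons start a transcription program for axon regrowth when their peripheral axon is cut.

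Among called transcripts, the effect shared by the 3 times was mostly a fall. Transcripts of the splicing and RNA-processing factors Rbm25, Srsf1, Tra2a and Cpsf6, the potassium channel Kcna4, the identity factor Isl1 and the ubiquitin ligase Ube3a were lower with camptothecin in every library comparison at every time, apart from Tra2a, whose arms overlapped at 24 h. A smaller set rose by less, among them the transcription factor Fosl2, the nuclear receptor Thra and the anion channel subunit Lrrc8b. Falls went with low GC content of the transcript and rises with high GC content, and the libraries of the 2 arms also differed in depth and in GC trend.

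A transcript was called when its averaged change had an adjusted p under 0.05 by edgeR's quasi-likelihood F test, two-sided, with Benjamini-Hochberg adjustment over all 18606 transcripts tested. This gave 1431 transcripts called lower (7.69% of those tested) and 482 called higher (2.59%). The same sign at all 3 times was found in 1419 of the calls lower (7.63% of those tested) and in 462 of the calls higher (2.48%). Over all transcripts tested, whatever their p, 23.6% were lower and 21.1% were higher at all 3 times. The median log2 fold change was -0.71 among the calls lower and 0.33 among the calls higher. At least a 2-fold change was seen in 369 calls lower and 9 calls higher. Of all 1913 calls (10.3% of those tested), 1342 were not called at any single time, and the numbers called at single times were 294 at 18 h, 0 at 24 h (1485 had an unadjusted p under 0.05 there) and 466 at 36 h. An unadjusted p under 0.05 at each of the 3 times was reached by 542 transcripts lower (2.91%) and 28 higher (0.15%).

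A stricter description asks that every camptothecin library lie on the same side of every vehicle library within each of the 3 times, and such transcripts are termed separated below. Separation held for 264 transcripts lower (1.42% of those tested), 262 of them called, and for 30 transcripts higher (0.161%), 27 of them called. The effect was smallest at 24 h in 971 of the 1419 called falls of the same sign and in 285 of the 462 called rises. Among called falls of the same sign the median log2 fold change was -0.73 at 18 h, -0.50 at 24 h and -0.79 at 36 h, and among called rises it was 0.40, 0.23 and 0.34. The fall was largest at 36 h in 817, at 18 h in 513 and at 24 h in 89 of the 1419.

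Depth and GC trend separated the arms. Vehicle libraries held 3.62 M to 8.32 M counts (M for mega) and camptothecin libraries 6.64 M to 15.0 M, and the ranges of the arms did not meet at any of the times. How a library's levels deviated from the mean went with transcript GC content, with rank correlations from -0.316 up to 0.0603 for vehicle and from -0.0776 up to 0.325 for camptothecin, again without overlap of the arms at any time. Transcripts are not independent replicates, so these correlations carry no p. Depth and treatment went together at all 3 times. In a fit with library total as a further term 0 transcripts were called for the average. There 840 had an unadjusted p under 0.05, a share of those tested below 0.05, against 4393 in the fit without that term. A GC-corrected fit, which removes a smooth trend on GC content from each library, is given beside the results. It called 485 transcripts lower (2.61%) and 124 higher (0.666%), and 479 of the 1431 falls and 53 of the 482 rises stayed called. Of the separated calls, 152 of 262 falls and 9 of 27 rises stayed called.

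**Figure D1:**
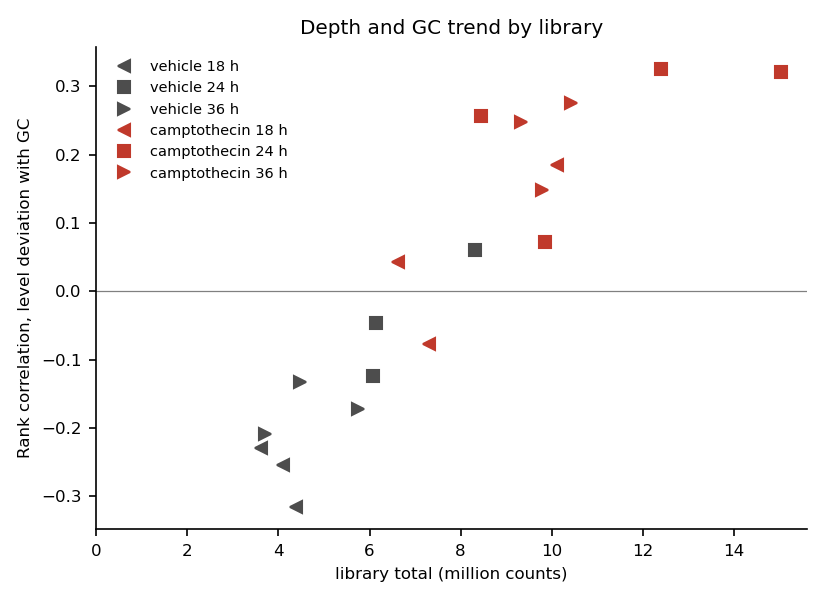
Each point is a library. The horizontal axis gives its total in M counts and the vertical axis Spearman's rank correlation across transcripts between its deviation in level and transcript GC content. Grey points are vehicle, red points camptothecin, and the symbols mark the 3 times. Vehicle libraries lie at lower totals and lower correlations than the camptothecin libraries of the same time.

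Promoter windows of 6 members are shown because called transcripts differed in the GC content of the RNA but little in that of the promoter. The windows run from 250 bases before to 50 bases after the gene's start and come from RefSeq (GRCm38.p6). They are printed 5′ to 3′ on the gene's strand, with the motif GGGCGG, or CCGCCC where it lies on the other strand, in capitals. The first 4 genes fell and the last 2 rose.

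Kcna4 (chr2:107290339-107290638, plus strand): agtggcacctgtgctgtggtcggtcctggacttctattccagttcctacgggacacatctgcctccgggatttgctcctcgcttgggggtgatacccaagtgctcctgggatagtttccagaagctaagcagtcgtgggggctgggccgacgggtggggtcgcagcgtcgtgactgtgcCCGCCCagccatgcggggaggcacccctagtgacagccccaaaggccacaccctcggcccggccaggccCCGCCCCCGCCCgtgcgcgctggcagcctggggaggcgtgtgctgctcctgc

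Isl1 (chr13:116309639-116309938, minus strand): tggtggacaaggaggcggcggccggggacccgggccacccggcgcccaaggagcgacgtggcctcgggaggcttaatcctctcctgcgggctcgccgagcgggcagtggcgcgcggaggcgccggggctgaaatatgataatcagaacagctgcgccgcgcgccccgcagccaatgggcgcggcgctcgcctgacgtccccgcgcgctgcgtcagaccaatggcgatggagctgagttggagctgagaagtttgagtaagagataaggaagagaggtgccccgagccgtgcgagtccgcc

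Srsf1 (chr11:88047123-88047422, plus strand): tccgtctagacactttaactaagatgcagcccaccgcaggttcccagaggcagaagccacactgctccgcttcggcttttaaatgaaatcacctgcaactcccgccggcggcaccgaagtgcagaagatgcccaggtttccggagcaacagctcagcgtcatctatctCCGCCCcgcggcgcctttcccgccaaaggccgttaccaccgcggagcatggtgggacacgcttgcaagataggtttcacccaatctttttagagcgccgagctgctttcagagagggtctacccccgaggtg

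Cpsf6 (chr10:117376924-117377223, minus strand): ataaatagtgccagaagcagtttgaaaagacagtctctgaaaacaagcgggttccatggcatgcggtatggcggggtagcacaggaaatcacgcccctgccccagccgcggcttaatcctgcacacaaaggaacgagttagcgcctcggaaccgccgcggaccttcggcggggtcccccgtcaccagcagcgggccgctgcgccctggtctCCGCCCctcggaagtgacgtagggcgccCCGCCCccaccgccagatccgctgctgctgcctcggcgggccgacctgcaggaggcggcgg

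Lrrc8b (chr5:105415525-105415824, plus strand): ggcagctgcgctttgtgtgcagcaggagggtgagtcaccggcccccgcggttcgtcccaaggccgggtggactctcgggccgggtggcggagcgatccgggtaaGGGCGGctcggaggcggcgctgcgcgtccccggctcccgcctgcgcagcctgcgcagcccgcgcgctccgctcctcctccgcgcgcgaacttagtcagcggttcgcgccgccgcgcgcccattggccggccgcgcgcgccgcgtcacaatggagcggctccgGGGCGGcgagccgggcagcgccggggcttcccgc

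Ulk1 (chr5:110810032-110810331, minus strand): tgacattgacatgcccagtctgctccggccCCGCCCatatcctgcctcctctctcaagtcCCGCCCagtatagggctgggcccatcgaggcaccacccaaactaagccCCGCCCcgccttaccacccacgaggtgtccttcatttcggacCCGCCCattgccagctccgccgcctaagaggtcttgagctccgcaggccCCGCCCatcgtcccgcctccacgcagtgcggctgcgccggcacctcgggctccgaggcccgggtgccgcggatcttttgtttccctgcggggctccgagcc

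Of 13677 measured genes, 9081 had a window and 8012 had one within 500 bases of the start of the measured transcript. The median GC content of these windows was 61.0% over all 8012, 62.3% over the 756 genes called lower and 63.7% over the 295 called higher. The transcripts themselves had medians of 49.2%, 42.3% and 54.3% in the same 3 sets. Across genes the GC contents of promoter and transcript had a rank correlation of 0.127. Searched on both strands, GGGCGG was found in 64.0% of all windows, 67.9% of those of genes called lower and 72.9% of those called higher. The TATAAA motif was found in 7.15%, 5.95% and 6.78%, the palindrome TGACGTCA in 3.36%, 3.17% and 3.05%, and TGANTCA, the letters of AP-1 sites, in 4.99%, 3.84% and 7.12%. Each match is a description of letters and not a measured binding site. Of the windows printed, Cpsf6 and Srsf1 had GC contents of 66.3% and 58.3% while their transcripts had 38.5% and 40.6%.

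The smallest p among the separated falls belonged to Setd5, a gene of the SET-domain methyltransferase family, measured in a retained-intron transcript (log2 fold change -1.45 ± 0.15 (SE, adjusted p = 1.53e-05)), and to Usp34, a deubiquitinase (-1.25 ± 0.13 (SE, adjusted p = 1.53e-05)). Levels are given as CPM, counts per M counts of the TMM-scaled library. Usp34 stood at 58.7, 68.3 and 44.8 CPM with vehicle and 26.6, 23.3 and 19.5 CPM with camptothecin at 18 h, at 36.27, 22.2 and 27.4 against 18.9, 11.5, 13.3 and 16.3 CPM at 24 h, and at 36.36, 51.0 and 30.8 against 13.6, 14.2 and 13.2 CPM at 36 h. Every camptothecin library was below every vehicle library of its time, and the lowest vehicle value at 24 h was above the highest camptothecin value at that time by a narrow margin. The Usp34 transcript spans chr11:23420055-23456686, plus strand, with 24 exons.

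Tcaf1 encodes a protein that binds the cold-sensing channel TRPM8 and its transcript spans chr6:42668002-42710088, minus strand. Tcaf1 stood at 962, 929 and 679 CPM with vehicle and 536, 517 and 435 CPM with camptothecin at 18 h, at 918, 522 and 640.2 against 375, 383, 371 and 400.0 CPM at 24 h, and at 1067, 1146 and 591 against 376, 451 and 407 CPM at 36 h. Camptothecin libraries were close to each other at each time, while vehicle libraries spread more widely, and the arms did not overlap. The average was -0.94 ± 0.11 (SE, adjusted p = 3.51e-05), made of -0.79, -0.86 and -1.18 at 18, 24 and 36 h, and with the GC-corrected fit it was -0.89 (adjusted p = 0.000583).

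Other separated falls included Cpsf6, a pre-mRNA cleavage and polyadenylation factor (-0.93 ± 0.11), Bicd1, an adaptor of the dynein motor (-0.91 ± 0.11), Ap1s2, a clathrin adaptor subunit (-0.99 ± 0.11), and Fbxl22, an F-box protein (-1.001 ± 0.11). Arhgap12, a GTPase-activating protein, averaged -1.25 ± 0.14. The largest falls among separated transcripts with a mean of at least 5 CPM in an arm were those of Agbl3, a tubulin carboxypeptidase (-2.29 ± 0.38), Fam13c (-1.84 ± 0.20), Lemd3, a protein of the inner nuclear membrane (-1.77 ± 0.23), and Eif2s3y, the Y-linked copy of an initiation factor subunit (-1.74 ± 0.25). Kdm5d, another Y-linked gene, averaged -0.06 (adjusted p = 0.728). The next largest falls were those of Mcmdc2 (-1.68 ± 0.24), Dennd2d (-1.67 ± 0.22), Paip1, a partner of poly(A)-binding protein (-1.61 ± 0.19), and Dmxl1 (-1.52 ± 0.24). The vehicle libraries of Agbl3 at 24 h held 13.9, 1.44 and 1.90 CPM, so its vehicle mean leaned on 1 library. Its camptothecin libraries held 0.394 to 2.60 CPM, and its fold therefore rests on low counts. Agbl3, Eif2s3y, Dmxl1 and Setd5 were represented by retained-intron transcripts, forms that keep an intron and are annotated as non-coding. These were the most counted of their called forms. All 18 separated falls taken for their small p or large fold, Kcna4 and Rbm25 included, stayed called in the GC-corrected fit. They also stayed called in every fit that left out a single library. These 18 were chosen from the same libraries for their calls, separation and small p or large fold. Their kept calls without 1 library are therefore no independent support. Of all 39 separated falls named, members of lists included, 30 stayed called with GC correction, and Top1, Top2b, Kcnh7, Zfp322a, Zfp820, Cul3, Ubr1, Psmd12 and Cadm2 did not.

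**Figure D2:**
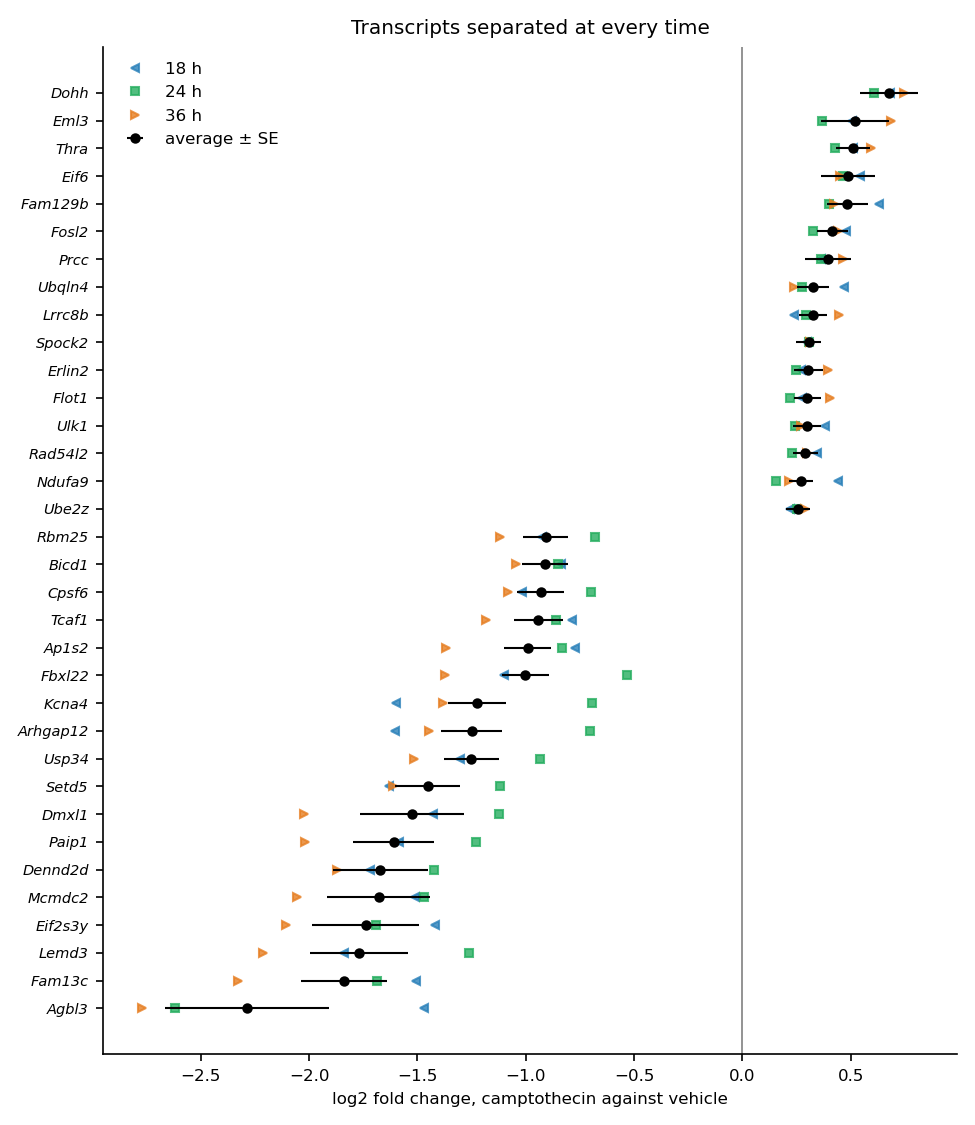
The horizontal axis gives the log2 fold change, camptothecin against vehicle, for the 34 separated transcripts taken for their small p or large fold. Black points are the average with its SE, and coloured symbols are the 18, 24 and 36 h effects. The 16 rises and 18 falls were chosen to have the same sign at the 3 times, so their kept sign is no result. The falls reach farther from 0 than the rises.

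Separated rises were fewer and smaller, with averaged log2 fold changes from 0.25 (Ube2z, a ubiquitin-conjugating enzyme) to 0.68 (Dohh, the hydroxylase that completes the hypusine residue of a translation factor) among the 16 named. Fosl2, a subunit of the AP-1 transcription factor, spans chr5:32135801-32157842, plus strand. Fosl2 stood at 73.6, 78.8 and 88.6 CPM with vehicle and 114, 119 and 103 CPM with camptothecin at 18 h, at 107, 113 and 104 against 124, 143, 160.2 and 113 CPM at 24 h, and at 83.9, 98.1 and 100.2 against 125, 121 and 137 CPM at 36 h. Camptothecin libraries were higher at each time without overlap, and at 24 h library 4 lay just above the vehicle libraries. The average was 0.41 ± 0.07 (SE, adjusted p = 0.000556) and stayed called with the GC-corrected fit (adjusted p = 0.038).

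Thra, the thyroid hormone receptor alpha gene, rose by 0.51 ± 0.08 (SE, adjusted p = 0.000213). Thra stood at 50.2, 38.6 and 42.7 CPM with vehicle and 72.3, 59.8 and 55.4 CPM with camptothecin at 18 h, at 49.3, 47.4 and 46.2 against 68.5, 62.7, 66.4 and 58.4 CPM at 24 h, and at 41.7, 42.7 and 41.2 against 73.5, 63.6 and 52.1 CPM at 36 h. The arms did not overlap at any time. Its transcript (chr11:98741811-98769006, plus strand) shares 1075 bases at its end with Nr1d1 on the opposite strand, and Nr1d1, a repressor of the circadian clock, was also called higher (0.65 ± 0.16 (SE, adjusted p = 0.00978)). Since the counting is not stated to use strand, reads in the shared stretch could belong to either gene.

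Lrrc8b encodes a subunit of the volume-regulated anion channel. Lrrc8b stood at 126, 141 and 139 CPM with vehicle and 153, 164 and 160.1 CPM with camptothecin at 18 h, at 131, 167 and 133 against 169.8, 181, 178 and 176 CPM at 24 h, and at 108, 139 and 118 against 178, 155 and 164 CPM at 36 h. The average was 0.32 ± 0.06 (SE, adjusted p = 0.00187), and as the transcript has a GC content of 44.9%, below the median of all tested, the GC-corrected value was larger at 0.44 (adjusted p = 0.00348). Erlin2, an endoplasmic reticulum lipid-raft protein with 46.0% GC, averaged 0.30 ± 0.07 and 0.38 after GC correction (adjusted p = 0.0135). Dohh also stayed called (adjusted p = 0.0373), as did Thra (adjusted p = 0.0486).

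The other 11 of these rises were not called with the GC-corrected fit. They held Ulk1, the kinase that starts autophagy (0.30 ± 0.06, corrected 0.13), Flot1, a membrane raft protein (0.30 ± 0.06, corrected 0.12), Ndufa9, a subunit of respiratory complex I (0.27 ± 0.06), Eif6, a ribosome assembly factor (0.49 ± 0.12), and Spock2, a matrix proteoglycan (0.31 ± 0.06). Fam129b (0.48 ± 0.10), Prcc (0.40 ± 0.11), Ubqln4 (0.33 ± 0.08), Rad54l2 (0.29 ± 0.06), Ube2z and Eml3 made up the rest. Eml3, a microtubule-binding protein, averaged 0.52 ± 0.16 (SE, adjusted p = 0.0355) and lost its call in 10 of the 19 fits that left out a single library.

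The targets of the drug class came first among the lists. Of 5 measured topoisomerase genes, 2 fell and 0 rose, where 8.59% of all measured genes fell and 3.36% rose. Top1, the target of camptothecin, averaged -0.49 ± 0.09 (SE, adjusted p = 0.000743). Top1 stood at 245, 231 and 187 CPM with vehicle and 181, 184 and 149 CPM with camptothecin at 18 h, at 231, 167 and 173 against 148, 152, 142 and 126 CPM at 24 h, and at 240.3, 254 and 161 against 136, 137 and 136 CPM at 36 h. The arms were separated at each time, and the camptothecin libraries of 36 h were nearly equal. Top2b, the topoisomerase II of neurons, averaged -0.36 ± 0.07 (SE, adjusted p = 0.00198) and was separated as well. With the GC-corrected fit neither was called, at -0.26 (adjusted p = 0.264) for Top1 and -0.13 (adjusted p = 0.561) for Top2b. Top2a, the form of dividing cells, averaged -0.32 ± 0.39 (SE, adjusted p = 0.68), and the mitochondrial Top1mt averaged 0.42 ± 0.15 (SE, adjusted p = 0.0807).

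In the list of trapped-topoisomerase and single-strand break repair, 1 of 10 measured genes fell (10.0%) and 0 rose, a share near the 8.59% of all measured genes. That gene was Aplf (-0.73 ± 0.22 (SE, adjusted p = 0.0375)), which lost its call in 12 of 19 fits without 1 library. Of 22 double-strand break and checkpoint genes, 1 fell (4.55%) and 0 rose. It was Lig4, the ligase of end joining (-1.16 ± 0.21 (SE, adjusted p = 0.00079)), with -1.12, -1.09 and -1.28 at 18, 24 and 36 h. Among 24 targets of p53, 4 fell (16.7%) and 0 rose. These were Gadd45a (-0.63 ± 0.13) and Zmat3 (-0.57 ± 0.10), which stayed called with the GC-corrected fit, and Eda2r (-1.08 ± 0.32) and the BH3-only gene Pmaip1 (-0.63 ± 0.19), which did not. In 8 of the fits without 1 library, such as those without camptothecin library 1 or 3 of 36 h, 2 of the 24 fell. Cdkn1a, the p53-induced cell cycle inhibitor, averaged 0.08 ± 0.11 (SE, adjusted p = 0.707).

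Splicing factors had more separated falls by number than any other of the 47 lists, which differ in size. Of 56 measured, 16 fell (28.6%) and 3 rose (5.36%), where 8.59% of all measured genes fell and 3.36% rose. Separated and lower were 9 of the 56, beside 4 of 27 very long genes, 2 of 5 topoisomerase genes and 1.42% of all transcripts tested. Of the 56, 30 were lower at all 3 times against 7 higher. The median log2 fold change of the list was -0.31, against 0.04 over all measured genes, with -0.29, -0.16 and -0.46 at 18, 24 and 36 h. Rbm25, which promotes the use of alternative exons, spans chr12:83632252-83683123, plus strand. Rbm25 stood at 125, 108 and 98.8 CPM with vehicle and 60.3, 60.2 and 53.8 CPM with camptothecin at 18 h, at 93.1, 63.9 and 60.7 against 42.9, 41.7, 42.6 and 54.0 CPM at 24 h, and at 125, 134 and 76.0 against 46.7, 52.8 and 53.9 CPM at 36 h. Its arms did not overlap at any time, and the average was -0.91 ± 0.10 (SE, adjusted p = 2.44e-05). Srsf1, a founding SR protein, averaged -0.80 ± 0.11 (SE, adjusted p = 8.05e-05), Tra2a -0.84 ± 0.10 (SE, adjusted p = 2.44e-05) and Ptbp2, the neuronal polypyrimidine tract-binding protein, -0.75 ± 0.11 (SE, adjusted p = 8.57e-05). Hnrnpk, Srsf3, Srsf10 and Srsf11 had log2 fold changes of -0.88, -0.83, -0.82 and -0.81. The 3 rises were Snrnp200 (0.21), Sf3b2 (0.26) and Sf3a1 (0.29), core components of the spliceosome. Leaving out single libraries gave 15 to 19 falls and 1 to 4 rises, with 1 rise without camptothecin library 1 or 2 of 36 h, camptothecin library 2 of 18 h or vehicle library 3 of 24 h. The median GC content of the list was 43.0%, below the 48.2% of all transcripts tested. With the GC-corrected fit 7 fell and 2 rose, where 2.89% of all measured genes fell and 0.782% rose, and Rbm25, Srsf1, Tra2a and Ptbp2 were among the 7. The median of the list was -0.13 in that fit.

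**Figure D3:**
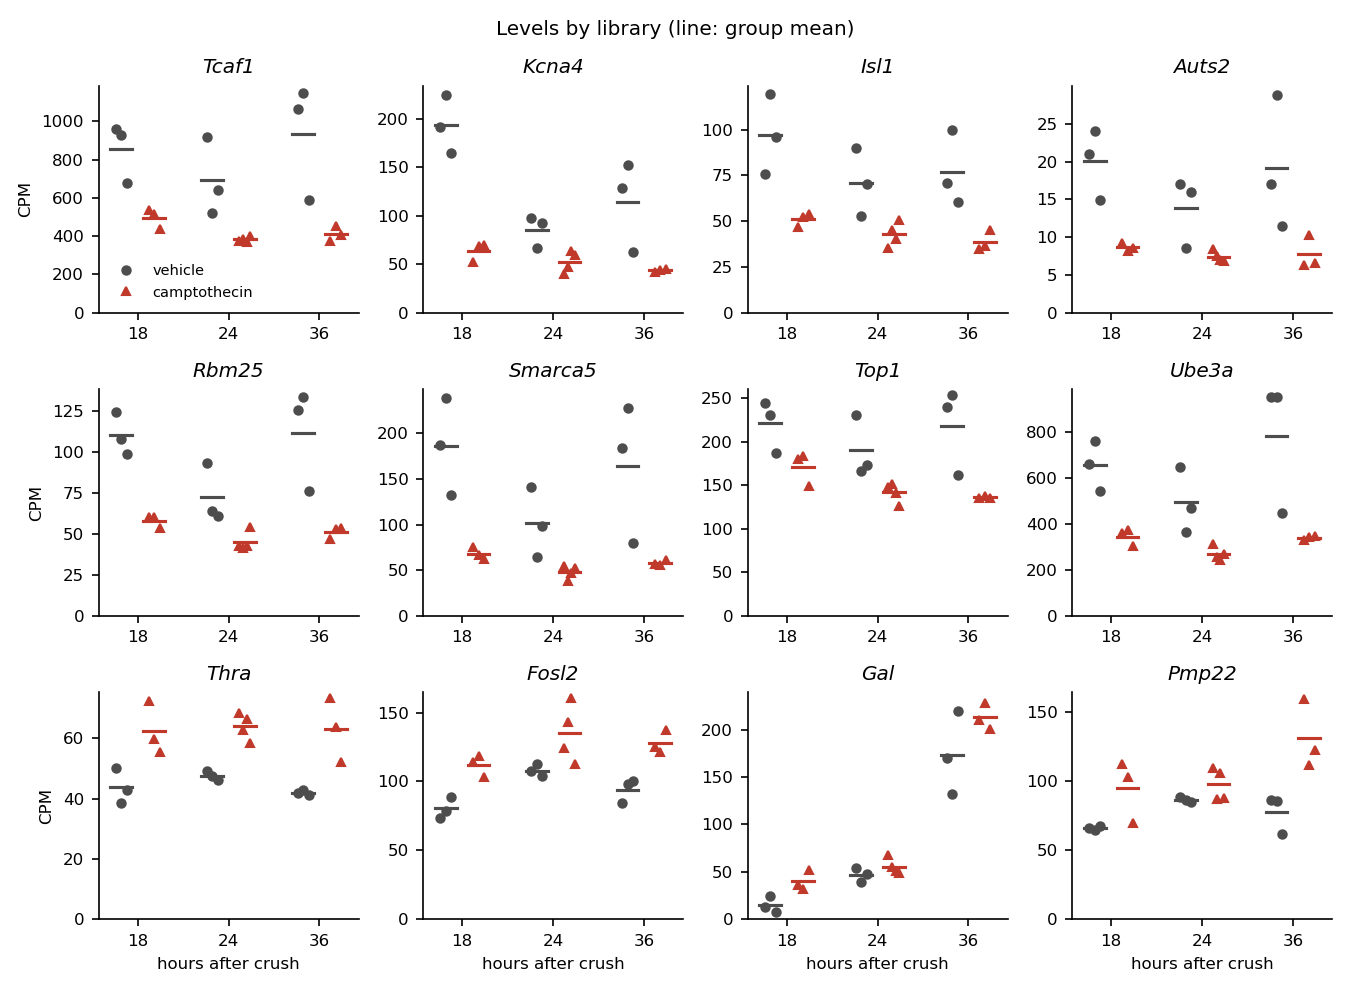
Points are libraries, grey circles vehicle and red triangles camptothecin, with a line at the group mean. The vertical axis is CPM and the horizontal axis hours after crush, for 12 genes. Tcaf1, Kcna4, Isl1, Auts2, Rbm25, Smarca5, Top1 and Ube3a are lower with camptothecin at each time without overlap, Thra and Fosl2 are higher, and the arms of Gal and Pmp22 overlap at 1 time or more.

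Very long genes fell in 9 of 27 measured cases (33.3%) and rose in 0, where 8.59% of all measured genes fell and 3.36% rose. At all 3 times 14 were lower and 0 higher. The median of the list was -0.36, and it was uneven over time, with -0.095 at 18 h, -0.35 at 24 h and -0.67 at 36 h. The 9 falls included the neuronal adhesion genes Nrxn3 (-1.04, -0.67 and -1.29 at 18, 24 and 36 h), Lsamp (-0.56), Opcml (-0.25) and Cntnap2 (-0.19). Auts2, a neurodevelopmental gene, was measured in a transcript at chr5:131437333-132543344, minus strand. Auts2 stood at 21.0, 24.08 and 14.9 CPM with vehicle and 9.22, 8.21 and 8.51 CPM with camptothecin at 18 h, at 17.1, 8.61 and 16.0 against 8.42, 7.51, 6.98 and 6.78 CPM at 24 h, and at 17.1, 28.9 and 11.5 against 6.28, 10.2 and 6.61 CPM at 36 h. The average was -1.13 ± 0.17 (SE, adjusted p = 0.000164), and no camptothecin library reached a vehicle library of its time, with a narrow margin at 24 h. Csmd1 (-1.33 ± 0.19, in a retained-intron transcript) and Grm7, a presynaptic glutamate receptor (-0.84 ± 0.13), fell as well. All 3 stayed called after GC correction, and for Auts2, whose transcript has 54.4% GC, the corrected value was -1.27. In the GC-corrected fit 5 of the 27 fell and the median was -0.34.

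Gene span showed a gradient over all transcripts as well. The median log2 fold change was 0.08 for transcripts of genes up to 10 kb, 0.04 up to 30 kb, -0.03 up to 100 kb, -0.06 up to 300 kb and -0.17 above 300 kb. With the GC-corrected fit the median above 300 kb was -0.11, and the share called lower was 5.85% there and between 2.06% and 2.97% in the 4 shorter classes. GC content showed a steeper gradient. The median was -0.46 below 40% GC, -0.17 from 40% to 45%, 0.01 to 50%, 0.11 to 55% and 0.18 above 55%. The share called lower fell from 29.4% to 0.795% over these classes while the share called higher went from 0.257% to 6.74%. Transcripts are not independent replicates, and the part of GC content, depth or composition in any of these gradients was not tested.

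**Figure D4:**
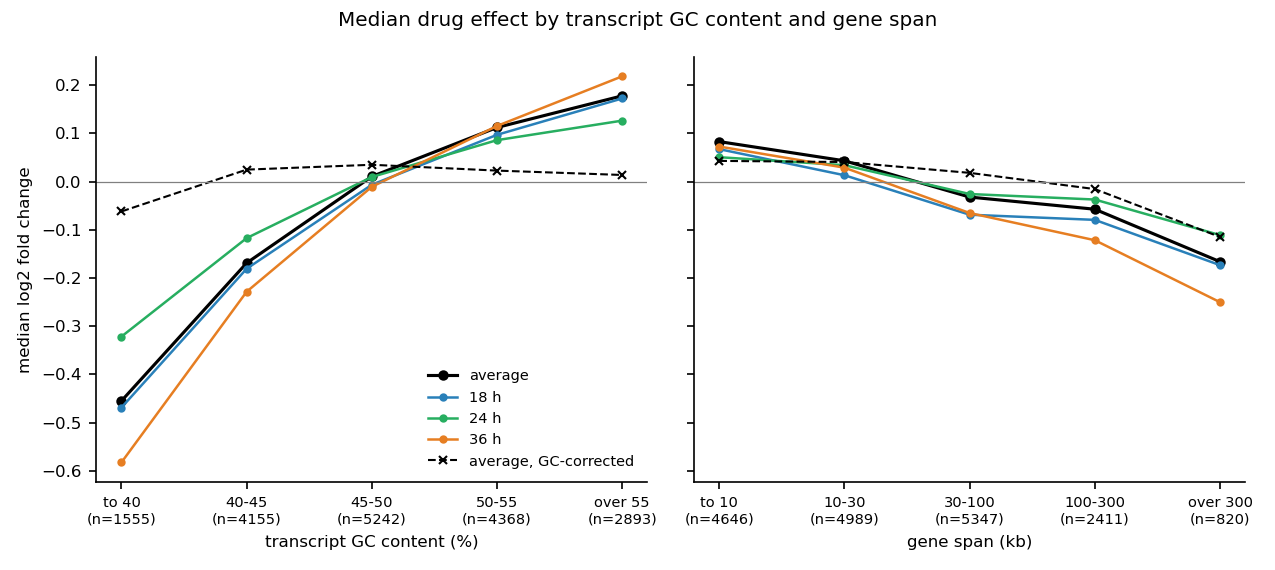
Median log2 fold change, camptothecin against vehicle, of transcripts grouped by their GC content (left) and by the span of their gene (right), with the number of transcripts under each class. Coloured lines are single times, the solid black line the average, and the dashed line the average with GC correction. The medians climb with GC content at every time and decline with span, and the corrected line stays near 0 over GC content but is lowest above 300 kb.

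Of 35 potassium channel genes, 5 fell (14.3%, against 8.59% of all measured genes) and 1 rose, and with GC correction 2 fell and 1 rose. Kcna4, an A-type channel of sensory neurons, had the smallest p. Kcna4 stood at 192, 225 and 165 CPM with vehicle and 52.6, 68.9 and 70.0 CPM with camptothecin at 18 h, at 98.0, 66.3 and 92.5 against 40.4, 47.6, 63.8 and 59.1 CPM at 24 h, and at 129, 152 and 62.1 against 42.0, 43.6 and 45.2 CPM at 36 h. Vehicle libraries varied more than camptothecin libraries at 36 h, and the arms did not overlap. The average was -1.22 ± 0.13 (SE, adjusted p = 2.23e-05), and -1.12 with GC correction (adjusted p = 0.000262). Kcnt2, a sodium-activated channel, averaged -1.44 ± 0.20 (SE, adjusted p = 7.19e-05), Kcnv1, a modulatory subunit, -0.58 ± 0.13, Kcnh7 -0.53 ± 0.10 and Kcnb2 -0.32, and the beta subunit Kcnab2 rose by 0.80. Of 10 voltage-gated calcium channel genes, 2 fell (20%) and 0 rose. They were Cacna1a, the pore of P/Q-type channels (-0.60 ± 0.16 (SE, adjusted p = 0.0173)), which was separated and whose GC-corrected value was -0.77, and Cacna1b, the pore of N-type channels (-1.41 ± 0.40 (SE, adjusted p = 0.0246)), which lost its call in 4 fits without 1 library. The Cacna1b transcript held 0.73 to 2.49 CPM with vehicle and 0.12 to 1.27 CPM with camptothecin, so its fold rests on low counts. Its arms overlapped at 24 h. Cacna1a lost its call without vehicle library 3 of 18 h or vehicle library 3 of 36 h. Without the latter 0 of the 10 fell. In 10 sodium channel genes 1 fell (10.0%) and 0 rose (Scn7a, -0.21 ± 0.05, 0.10 after GC correction). In 22 sensory transduction channels 1 fell (4.55%) and 0 rose (Ano3, -0.51 ± 0.11). Differences between these lists were not tested.

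Transcription factors of sensory neuron identity fell in 6 of 23 cases (26.1%) and rose in 0, where 8.59% of all measured genes fell and 3.36% rose. In the GC-corrected fit 5 of the 23 fell, where 2.89% of all measured genes fell. Isl1, a LIM-homeodomain factor of sensory neurons, spans chr13:116298281-116309689, minus strand. Isl1 stood at 75.6, 119.6 and 95.9 CPM with vehicle and 46.6, 52.5 and 54.0 CPM with camptothecin at 18 h, at 90.1, 52.6 and 70.4 against 35.5, 45.3, 40.4 and 50.6 CPM at 24 h, and at 70.8, 99.6 and 60.3 against 35.0, 36.15 and 45.4 CPM at 36 h. Its libraries did not overlap between arms at any time, and it averaged -0.87 ± 0.12 (SE, adjusted p = 5.69e-05). Ebf1, a helix-loop-helix factor, averaged -0.72 ± 0.10 (SE, adjusted p = 9.94e-05) and was separated too. Pou4f2 (-0.68 ± 0.11), Maf (-0.51 ± 0.10), Etv1 (-0.93) and Zfhx3 (-0.32) were the others.

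Injury-response genes moved in both directions. Of 26 regeneration transcription factors, 4 rose (15.4%) and 1 fell (3.85%), where 3.36% of all measured genes rose and 8.59% fell. Cebpd (0.60), Fosl2, Nfil3 (0.35 ± 0.10) and Atf3 (0.25 ± 0.07) were the rises and Sox4 (-0.49 ± 0.12) the fall. Atf3 did not keep its sign, with 0.59, 0.23 and -0.08 at 18, 24 and 36 h, and its call was lost in 8 fits without 1 library. The list had 1 rise without vehicle library 4 of 18 h or vehicle library 3 of 24 h, and 1 to 5 over all fits that left out 1 library. Jun (-0.10 ± 0.06 (SE, adjusted p = 0.31)), Sox11 (0.03 ± 0.08 (SE, adjusted p = 0.871)) and, among effectors of growth, Gap43 (0.14 ± 0.07 (SE, adjusted p = 0.258)) and Sprr1a (0.46 ± 0.20 (SE, adjusted p = 0.164)) were not called. Among 31 other injury-induced genes, 4 rose (12.9%) and 2 fell (6.45%). Vgf, a secreted neuropeptide precursor (0.40 ± 0.10), Gpr151 (0.40 ± 0.11) and Tubb3 (0.22 ± 0.06) were among the rises. Flrt3 (-0.60 ± 0.14) and Tubb2b (-0.47 ± 0.13) were the falls. With GC correction 1 regeneration factor rose and 1 fell, and of the other injury-induced genes 0 rose and 1 fell. Single libraries decided some of these rises, since 1 was left without vehicle library 4 of 18 h, vehicle library 3 of 24 h, vehicle library 3 of 36 h or camptothecin library 2 of 36 h.

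Among 14 neuropeptide genes 2 rose (14.3%) and 0 fell, where 3.36% of all measured genes rose and 8.59% fell. Galanin is made by injured sensory neurons. Gal stood at 12.8, 24.6 and 7.69 CPM with vehicle and 36.0, 31.8 and 51.8 CPM with camptothecin at 18 h, at 54.0, 38.9 and 47.4 against 68.1, 54.7, 50.5 and 48.3 CPM at 24 h, and at 169.8, 132 and 219 against 210.0, 228 and 201 CPM at 36 h. The arms of Gal were apart at 18 h and overlapped at 24 and 36 h, so the average of 0.65 ± 0.15 (SE, adjusted p = 0.00536) was uneven over time (1.42, 0.25 and 0.29). Npy, neuropeptide Y, was likewise carried mostly by 18 h (2.67, 0.15 and 0.14, average 0.99 ± 0.22 (SE, adjusted p = 0.00437)). At 18 h Npy stood at 1.17, 1.06 and 0.452 CPM with vehicle and 4.08, 3.31 and 9.54 CPM with camptothecin. Its fold at 18 h therefore rests on low counts.

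Chromatin regulators were called in both directions. Of 29 remodellers and architecture genes 5 fell (17.2%) and 3 rose (10.3%), against 8.59% and 3.36% of all measured genes. The ISWI ATPases Smarca5 (-1.34 ± 0.16 (SE, adjusted p = 3.51e-05)) and Smarca1 (-1.35 ± 0.21 (SE, adjusted p = 0.000245)) fell most, with Stag1 (-1.12), Pbrm1 (-0.36 ± 0.09) and Atrx (-0.33 ± 0.07), and Ino80 (0.46), Bptf (0.38) and Arid2 (0.21) rose. The rises were 0 in 9 of the fits without 1 library, among them those without vehicle library 1 or 3 of 24 h, while the falls were 4 or 5 in each. Smarca5 stood at 187, 238 and 133 CPM with vehicle and 75.5, 66.5 and 62.5 CPM with camptothecin at 18 h, at 141, 64.2 and 97.9 against 54.996, 38.1, 46.7 and 52.2 CPM at 24 h, and at 183, 227 and 80.2 against 57.1, 55.2 and 61.3 CPM at 36 h. The arms of Smarca5 were separated at each time. Atrx was at 0.02 with GC correction, so its direction rests on the uncorrected scale. Of 40 histone and DNA modifier genes 5 fell (12.5%) and 2 rose (5%), shares near the 8.59% and 3.36% of all measured genes. Kdm6a and Kdm6b, demethylases of histone H3 lysine 27, averaged -1.84 ± 0.27 (SE, adjusted p = 0.000138) and -0.56 ± 0.11 (SE, adjusted p = 0.00191), the first measured in a retained-intron transcript. Kdm6b was separated at each time although its transcript has 59.6% GC, and the GC-corrected value was -0.75 (adjusted p = 0.000596). Kmt2e (-1.28), Setd1b (-0.89 ± 0.18) and Kdm7a (-0.44 ± 0.09) also fell, and Kat5 (0.32) and Crebbp (0.24) rose. With GC correction 2 remodellers fell and 1 rose, and 4 modifiers fell and 0 rose.

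In 35 genes of transcription elongation and Mediator, 5 fell (14.3%) and 3 rose (8.57%), against 8.59% and 3.36% of all measured genes. Cdc73 of the Paf1 complex (-0.66 ± 0.12) and Med14 of Mediator (-0.61 ± 0.14) fell, while Polr2a, the largest subunit of RNA polymerase II (0.32 ± 0.09), and its elongation partners Supt5 (0.27 ± 0.07) and Supt6 (0.21) rose. Without vehicle library 3 of 18 h or vehicle library 1 of 24 h 2 of the 35 fell, without vehicle library 2 or 3 of 36 h 3 fell, and without camptothecin library 4 of 24 h 5 rose. With GC correction 1 of the 35 fell and 0 rose, and neither Polr2a (adjusted p = 0.2) nor Supt5 (adjusted p = 0.44) was called. Zinc finger (Zfp) genes, most of them DNA-binding repressors by family, fell in 47 of 265 cases (17.7%) and rose in 4 (1.51%). Their median was -0.09 and their median GC content 44.7%. Fits without 1 library gave 39 to 53 falls and 2 to 8 rises, the highest count of rises without camptothecin library 4 of 24 h. Zfp26 (-1.32 ± 0.17), Zfp820 (-1.06 ± 0.15), Zfp157 (-0.69 ± 0.09) and Zfp322a (-0.66 ± 0.09) had the smallest p. With the GC-corrected fit 6 fell, 2 rose and the median was 0.05.

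Ubiquitin ligases fell in 7 of 36 cases (19.4%) and rose in 0, where 8.59% of all measured genes fell and 3.36% rose. Ube3a, the HECT ligase of Angelman syndrome, spans chr7:59228751-59306727, plus strand. Ube3a stood at 662, 758 and 542 CPM with vehicle and 358, 371 and 302 CPM with camptothecin at 18 h, at 648, 365 and 468 against 312, 254, 243 and 270.2 CPM at 24 h, and at 949, 949 and 445 against 329, 344 and 346 CPM at 36 h. Vehicle libraries ranged widely at 36 h, and the lowest vehicle library was still above the highest camptothecin library there. Its average was -0.999 ± 0.12 (SE, adjusted p = 3.79e-05). Trim2 (-1.27), Birc6 (-1.16), Fbxw7 (-0.99), Herc2 (-0.92 ± 0.17), Cul3 (-0.74 ± 0.11) and Ubr1 (-0.49 ± 0.07) were the others. After GC correction 2 of the 36 fell, Ube3a (adjusted p = 0.00864) and Herc2 (adjusted p = 0.00292).

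**Figure D5:**
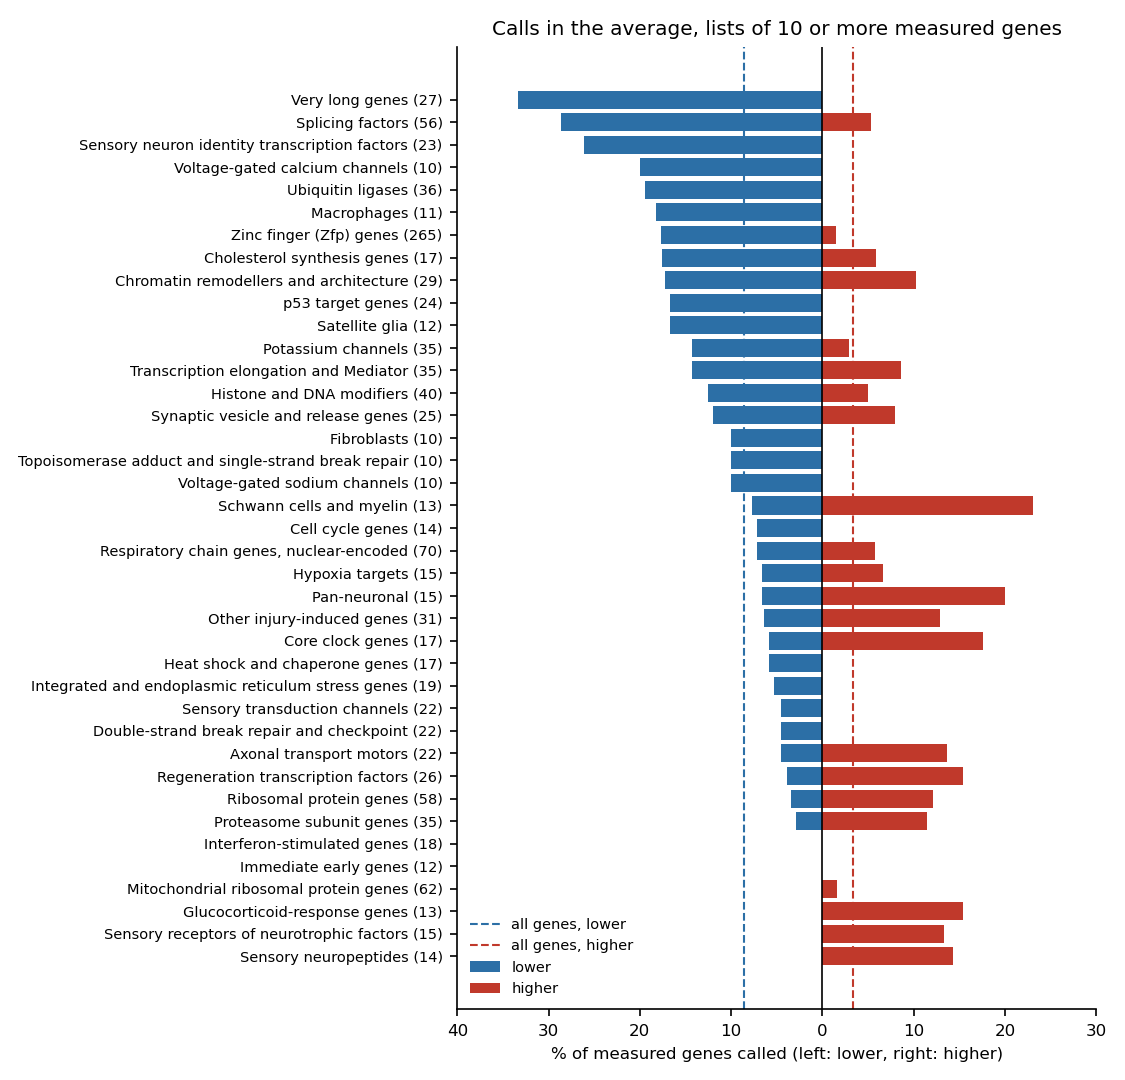
Bars give the percent of measured genes of each list called lower (left) and called higher (right) in the average, and the number in brackets is the measured genes. Dashed lines mark the 8.59% of all measured genes called lower and the 3.36% called higher. Only lists with 10 or more measured genes are drawn. Among these, very long genes, splicing factors and identity transcription factors have the longest bars on the left, and Schwann cell, pan-neuronal and clock genes the longest on the right.

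Of 58 ribosomal protein genes 7 rose (12.1%) and 2 fell (3.45%), where 3.36% of all measured genes rose and 8.59% fell. At all 3 times 20 of the 58 were higher and 5 lower, and their median was 0.15. Rps25 (0.39), Rplp0 (0.33) and Rpl32 (0.32) led the rises, and Rpl15 (-0.96 ± 0.16) and Rps20 (-0.67 ± 0.11) were the falls. These genes have processed pseudogenes, which could share their reads. The rises were 0 without camptothecin library 3 of 18 h or camptothecin library 1 of 36 h, 1 to 4 without any of 8 other libraries, and 0 to 9 over all fits that left out 1 library. Proteasome subunits rose in 4 of 35 cases (11.4%) and fell in 1, with Psmb10 (0.47 ± 0.13) and Psmc2 (0.27 ± 0.06) among the rises and Psmd12 (-0.41 ± 0.08) as the fall, and 1 subunit rose without vehicle library 2 of 24 h, camptothecin library 3 of 18 h or camptothecin library 3 of 36 h. Of 70 nuclear-encoded respiratory chain genes 4 rose (5.71%) and 5 fell (7.14%), shares near those of all genes, with 2 to 9 rises and 2 to 6 falls when 1 library was left out (9 without camptothecin library 4 of 24 h). Of 62 mitochondrial ribosomal protein genes 1 rose (1.61%, Mrps7, 0.33 ± 0.09) and 0 fell. With the GC-corrected fit 0 ribosomal protein genes rose and 1 fell, 2 proteasome genes rose and 0 fell, and 0 respiratory chain genes rose and 2 fell.

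Cholesterol synthesis genes fell in 3 of 17 cases (17.6%), Msmo1 (-0.93 ± 0.17) and Insig1 (-0.26 ± 0.07) among them, and rose in 1, and with GC correction 1 fell and 0 rose. Of 17 clock genes 3 rose (17.6%), Nr1d1, Cry2 (0.27 ± 0.06) and Nfil3, and 1 fell, Nr1d2 (-0.35 ± 0.11), which lost its call in 14 fits without 1 library. With GC correction 0 clock genes were called. Metallothioneins Mt1 (0.54 ± 0.16) and Mt2 (0.70 ± 0.19) were the 2 rises among 13 glucocorticoid-response genes (15.4%), with the largest effects at 36 h (1.06 and 1.57). With GC correction neither was called, and Mt1 lost its call in 7 fits without 1 library. Synaptic vesicle genes fell in 3 of 25 cases (12.0%) and rose in 2 (1 and 0 with GC correction), with Pclo (-0.59 ± 0.08) and Snap25 (-0.32 ± 0.08) lower and Bsn (0.25 ± 0.07) higher. Axonal transport motors rose in 3 of 22 cases (13.6%), Kif1a (0.64 ± 0.20), Kif21a (0.44 ± 0.12) and Dctn2 (0.26 ± 0.06), and Kif5b fell (-0.41 ± 0.08), with 5 rises when camptothecin library 4 of 24 h was left out. Kif1a lost its call in 13 fits without 1 library, and with GC correction 2 of the 22 rose and 0 fell. Neurotrophic factor receptors rose in 2 of 15 cases (13.3%), Gfra3 (0.29 ± 0.08) and Osmr (0.21 ± 0.06), and in 0 to 3 when 1 library was left out. Osmr lost its call in 8 such fits and Gfra3 in 3, among them for both those without vehicle library 2 of 36 h or camptothecin library 1 of 36 h, and Gfra3 was not called with GC correction (adjusted p = 0.518). Of 17 heat shock genes 1 fell (5.88%, Hspe1, -0.57 ± 0.15), and of 19 endoplasmic reticulum stress genes 1 fell (5.26%, Dnajb9, -0.43 ± 0.10). Of 15 hypoxia targets 1 fell (6.67%, Ankrd37, -1.04 ± 0.30) and 1 rose (6.67%, Ndrg1, 0.44 ± 0.13). Of 14 cell cycle genes 1 fell (7.14%, Ccna2, -0.68 ± 0.13), where 8.59% of all measured genes fell and 3.36% rose. Of 12 immediate early and 18 interferon-stimulated genes 0 were called by edgeR's test, with 1 in each list at an unadjusted p under 0.05.

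Markers of the cells in the ganglion were measured in the same contrast. In this bulk tissue, fewer cells of a type and less RNA per cell cannot be told apart. Pan-neuronal genes, which mark sensory neurons, summed to between 32121 and 41696 CPM in vehicle and between 28162 and 42391 CPM in camptothecin libraries. Of 15 measured 3 rose (20%) and 1 fell (6.67%), where 3.36% of all measured genes rose and 8.59% fell. The rises were 0 without vehicle library 4 of 18 h, vehicle library 3 of 24 h or camptothecin library 3 of 18 h, and 0 pan-neuronal genes were called with GC correction. Red cell genes fell in 7 of 9 cases (77.8%) and rose in 0, and 6 fell with GC correction. Slc4a1, an anion exchanger (-1.98 ± 0.51), and the globin gene Hbb-bt (-1.67 ± 0.36) were among them. The fall was uneven over time, with list medians of -0.87, -0.94 and -3.32 at 18, 24 and 36 h. For both Slc4a1 and Hbb-bt the arms overlapped at 18 and 24 h and were apart at 36 h. The list summed to between 35.0 and 155 CPM in vehicle and between 23.0 and 70.6 CPM in camptothecin libraries, so these sums overlapped. Without the 4 libraries numbered 4 the red cell falls were 4. The globin genes are near-identical copies, and their split is uncertain.

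Of 13 Schwann cell and myelin genes 3 rose (23.1%), Pmp22 (0.49 ± 0.10), Cldn19 (0.44 ± 0.14) and Sox10 (0.28 ± 0.08), and 1 fell (7.69%), where 3.36% of all measured genes rose and 8.59% fell. With GC correction 1 of the 13 rose and 0 fell. The rises were 1 to 5 when 1 library was left out, with 1 without vehicle library 1 of 24 h, vehicle library 3 of 36 h, or any of camptothecin libraries 2 of 18 h, 1 of 36 h and 3 of 36 h, and 5 without camptothecin library 4 of 24 h. Pmp22 stood at 66.0, 64.6 and 67.4 CPM with vehicle and 113, 103 and 69.5 CPM with camptothecin at 18 h, at 88.4, 86.5 and 84.8 against 109.9, 86.8, 106 and 88.1 CPM at 24 h, and at 86.6, 85.7 and 61.6 against 159, 112 and 123 CPM at 36 h. The arms of Pmp22, a myelin gene, were apart at 18 and 36 h and overlapped at 24 h. Of 12 satellite glia genes Gja1, a gap junction protein (-0.79 ± 0.16), and Cadm2 (-0.78 ± 0.10) fell (16.7%) and 0 rose. Of 11 macrophage genes Ccr2 (-1.40 ± 0.28) and Csf1r (-0.96 ± 0.22) fell and 0 rose. The median log2 fold change of the macrophage list was 0.15, and 0.001 with GC correction. Whatever their p, 2 of its genes were higher and 2 lower at all 3 times. The list summed to between 163 and 374 CPM (median 209.6) in vehicle libraries. In camptothecin libraries it summed to between 157 and 460 CPM (median 260.4). Among endothelial genes Esam rose (0.64 ± 0.20, 1 of 6, 16.7%), and among fibroblast genes Igf1 fell (-0.44 ± 0.13, 1 of 10, 10%). Of 9 neutrophil, 4 lymphocyte, 9 mural, 3 muscle and 3 adipocyte genes 0 were called by edgeR's test, and an unadjusted p under 0.05 was found in 1 neutrophil and 1 adipocyte gene and in 0 of the other 3 lists. With GC correction 1 satellite glia and 1 macrophage gene fell, and 0 endothelial and 0 fibroblast genes were called. The part of cell composition in the falls and rises above was not tested.

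Transcript forms of a gene did not always move together. Of the transcripts tested, 11577 were protein-coding, of which 9.49% were called lower and 3.72% higher, and 2954 were retained-intron forms, of which 4.94% were called lower and 0.169% higher. The median log2 fold change was 0.05 for the protein-coding and -0.18 for the retained-intron forms, and their median GC contents were 49.1% and 45.7%. Their median levels were 11.4 and 1.85 CPM, so the shares called are not directly comparable. Among 2801 genes with several tested transcripts, 5 had a call in each direction, namely Fto, Slitrk2, Sptb, Tpd52l2 and Zwint. Fto, an RNA demethylase, had a transcript of 9 exons that rose by 0.32 and a transcript of 4 exons that fell by 1.06 on the log2 scale, with GC contents of 52.1% and 43.3%. Reads shared by forms of a gene could be split between them by the counting, so these values are uncertain.

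The effect differed among the 3 times in 1 transcript (0.00537% of those tested) by edgeR's test of the 2 time differences with Benjamini-Hochberg adjustment. An unadjusted p under 0.05 was found in 690, a share of those tested below 0.05. The transcript called was Zbtb16, a zinc finger gene induced by glucocorticoids (adjusted p = 0.0144). Zbtb16 stood at 24.23, 22.8 and 6.33 CPM with vehicle and 5.29, 5.51 and 5.80 CPM with camptothecin at 18 h, at 7.15, 11.2 and 7.75 against 16.0, 9.99, 8.33 and 7.07 CPM at 24 h, and at 5.86, 5.89 and 7.29 against 32.8, 29.7 and 30.9 CPM at 36 h. Camptothecin libraries were all below the vehicle libraries at 18 h and all above them at 36 h, and its average was 0.28 ± 0.20 (SE, adjusted p = 0.433). Across transcripts the single-time effects had rank correlations of 0.268 between 18 and 24 h, 0.340 between 18 and 36 h and 0.321 between 24 and 36 h, which fell to 0.188, 0.253 and 0.249 with GC correction. The libraries of the 3 times are separate, and the arms share their depth difference at each time.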

How the data were processed

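The deposited table held 19571 Ensembl transcripts with raw counts, log2-scale variance-stabilised values, and the authors' log2 fold changes and p-values, per the file headers. The submitters' processing notes name mm10, limma and CASAVA 1.8.2, while the aligner and the counter are not given in these sources. Per the labels' protocols, RNA came from whole ganglia and was amplified with a Nugen Ovation V2 kit, but the amplification step names IP or FT RNA, terms it does not explain, so which RNA was amplified is uncertain. Columns carry the letters A and B, and the deposited log2 fold changes of camptothecin against vehicle equalled B minus A means of the deposited log2 values, to within 8.7e-14. The counts as deposited, 3.62 M to 15.0 M per library (M for mega), were fitted with edgeR 4.0.16 (R 4.3.3; TMM scaling, filterByExpr with minimum count 10 and total 15, 965 transcripts removed) as 6 group means, with 13 residual degrees of freedom. The step was tested on simulated counts. CPM are counts per M counts scaled by TMM, and SEs come from the quasi-likelihood F statistic. GC content, positions and exons come from GENCODE M21 (GRCm38), which matched 19148 transcripts. Each gene of a list, and each of all measured genes, was represented by its most counted transcript. Genes named only for a small p or large fold were represented by their most counted called transcript. Those named only for the test among times were represented by their transcript of smallest p in it. GC correction removed a natural spline (5 degrees of freedom) of GC content from each library. Alternatives used limma 3.58.1 and DESeq2 1.42.0 as well. Replicates of a group differed by more than counting noise (chi-square over its degrees of freedom, 3.00 to 21.3). The members, the 47 lists and the tests were chosen with earlier results of these data known. Among separated, called transcripts with a proper symbol, the naming rule took the 12 smallest p and the 8 largest folds in each direction, then up to 4 members of each list by p, a fixed set of injury and topoisomerase genes, and the 6 smallest p among times. Some genes it took are not reported here. Other list members, Fto and the printed promoters were named after their values were seen. The design assumed 24 samples and was applied to 19.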

Additional observations from a re-analysis of the deposited data

Results flagged for a closer look

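In the camptothecin group at 24 h, the only group of 4 libraries, single libraries stood apart by Dixon's criterion in 9 of 147 named genes, a share near the 1 in 20 that chance gives. Library 4 was the highest for Rbm25 (54.0 CPM), Eif2s3y (9.97 CPM) and Mdm2 (7.26 CPM) and the lowest for Steap4 (85.1 CPM). Library 1 was the highest for Gadd45a (649 CPM), Smarca1 (6.57 CPM) and Uqcrb (23.8 CPM). Library 3 was the highest for Dohh (15.0 CPM) and the lowest for Zfp820 (2.46 CPM).

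The effect on Zbtb16 differed among times by edgeR's test (adjusted p = 0.0144), with log2 fold changes of -1.66, 0.23 and 2.28 at 18, 24 and 36 h. The vehicle libraries of 18 h held 24.23, 22.8 and 6.33 CPM, the lowest of them close to the camptothecin libraries (5.29 to 5.80 CPM).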

How the results depend on the processing

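The count of 1913 calls was 609 with GC correction, 824 without the 18 h libraries and 899 without the 36 h libraries. With a covariate for log2 library total it was 0, with 840 at an unadjusted p under 0.05, a share of those tested below 0.05. The count of 1881 with the same sign was 602, 823, 898 and 0 under these settings. Fits without 1 library gave 1427 to 2503 calls, 1393 to 2440 with the same sign, and 0 to 2 transcripts that differed among times. The replicate block gave 2410, 2331 and 0 of these 3 counts, and same-numbered libraries of the arms correlated from -0.210 to 0.226 in 7 pairs, 1 of them over 0.1, so the numbers were not taken as pairing. GC correction with the block gave 1313 and 1260. For the difference among times DESeq2 gave 11, limma-voom 0, the stricter filter 2, the replicate block 0, GC correction with the block 3 and thinning to a common total 2. The share of calls that were lower was 74.8%, 61.9% by DESeq2 (2580 calls), 63.3% with the stricter filter, 85.9% without 18 h and 63.8% without camptothecin library 4 of 24 h.

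Of 138 named calls, 69 kept sign and call with GC correction, and 107 were lost in no fit without 1 library. Those lost in 5 or more of these 19 fits were Nr1d2 (14), Cldn19 and Kif1a (13), Aplf, Igf1 and Pmaip1 (12), Esam and Thy1 (11), Eml3 (10), Eda2r and Psmd7 (9), Ankrd37, Atf3, Osmr and Rpl14 (8), Mt1 (7), Ndrg1, Sox10, Tubb3 and Uchl1 (6), and Gpr151 (5). Signs reversed with the library total as covariate for Eml3 (-0.042), Aplf (0.35), Pmaip1 (0.16), Atrx (0.042), Nr1d2 (0.35), Hspe1 (0.069), Igf1 (0.18), Sox11 (-0.27) and Gap43 (-0.20). They reversed with GC correction, and with the block added, for Scn7a (0.099 and 0.092), Atrx (0.017 and 0.016) and Cdkn1a (-0.055 and -0.030). Without 1 library Cdkn1a ran from -0.010 (vehicle library 4 of 18 h) to 0.21, and Sox11 from -0.0066 (vehicle library 3 of 36 h) through -0.0016 (vehicle library 4 of 18 h) to 0.079. Sox11 was -0.11 without 18 h. Without 36 h Zbtb16 was -0.69, Steap4 -0.024 and Shh 0.098, without 24 h Shh was 0.0046, and without 18 h Ccdc92 was -0.11. The 4 libraries numbered 4 were left out as an alternative chosen after seeing the data, which gave 2300 calls.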
